A study of Mus musculus with 2 samples.

Results

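Ephrins and Eph receptors were examined in endothelial cells of the mouse retina, as 8 genes chosen by name: the ephrins *Efnb2*, *Efnb1* and *Efna1* and the receptors *Ephb4*, *Epha2*, *Epha4*, *Ephb1* and *Ephb2*. All 8 matched 1 row in each count table by gene identifier, out of 24657 symbols with a row in either table. They belong to a mouse family of 22 genes, of which 19 had a row in both tables. The cells came from retinas of wild-type C57BL/6 mice at postnatal day 6 (P6) and postnatal day 15 (P15), sorted by flow cytometry as CD31+CD45- cells, CD31 being carried by endothelium and CD45 by blood cells. No transgene or treatment is named for these mice, and the number of pooled animals is not given in the sources used here. Single-cell RNA sequencing in droplets gave 1 library per age, so there were no replicates, no test across samples was possible, and age cannot be told apart from library. Intervals in the text are 95% intervals for counting error only.

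Ephrins are ligands that stay attached to the cell that makes them, the A class by a lipid anchor and the B class by a transmembrane segment. Eph receptors are receptor tyrosine kinases on the neighbouring cell, so that binding needs contact between cells and can signal into both. In blood vessels, ephrin-B2 (*Efnb2*) is known as a marker of arterial endothelium and its receptor EphB4 (*Ephb4*) as a marker of venous endothelium. Ephrin-A1 (*Efna1*) is the main known partner of EphA2 (*Epha2*), and both have been linked to vessel growth and remodelling.

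The authors deposited counts of unique molecular identifiers (UMIs), tags by which each captured mRNA is counted once. Cells were kept where they passed the study's exclusion criteria or held one of its cluster names, which left 1585 of 1984 barcodes at P6, with 9729405 UMIs and a median of 5316 per cell. At P15, 1673 of 2141 barcodes were kept, with 7709840 UMIs and a median of 4300. A level is given in CPM, the UMIs of a gene per 1000000 UMIs of the same cells. All 8 endothelial markers were found in both libraries and every kept cell had a UMI of at least 1 of them. The libraries differed in markers of other cells: the 8 pericyte and mural markers summed to 13.3 CPM at P6, with *Cspg4* at 0, and to 325 at P15, with none at 0. Proliferation markers summed to 541 and 61.1 CPM, respectively. The libraries shared 7 barcodes, 2 of them kept in both.

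The study names 9 clusters in its source data, called Arterial, Cap-Arterial, Venous, Cap-Venous, Capillary, Tip, Stalk, Primitive and Proliferative. Names were held here for 1560 P6 cells and, because the copy of the list is cut, for only 438 P15 cells. *Efnb2* and *Ephb4* were among the genes by which the study named clusters, and any gene could enter its clustering, so levels by cluster are a description. Summed over Arterial and Cap-Arterial cells, the 8 arterial markers were 7.49 times (7.07–7.95) their level in Venous and Cap-Venous cells at P6 and 4.04 times (3.64–4.49) at P15, and the 6 venous markers 0.372 times (0.344–0.401) and 0.231 times (0.196–0.271). Taken singly, the Arterial and Cap-Arterial clusters led in arterial markers at P6, at 7394 and 3225 CPM, but the Venous cluster did not lead in venous markers. Its 1617 CPM lay below Capillary (2276), Cap-Venous (2039) and Stalk cells (1685), and its arterial markers, at 706, lay above the 519 of Cap-Venous cells. At P15 only 2 Venous cells were named, with the arterial and venous markers both at 1044 CPM.

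Among markers of retinal neurons, *Stmn2* moved with the arterial clusters. The 8 such markers summed to 1210 CPM in Arterial and 252 in Cap-Arterial cells at P6, against 12.8 to 32.5 in the other 7 clusters. *Stmn2*, which encodes a microtubule-binding protein of growing neurons, gave most of this, with 233 UMIs in 34 of 40 Arterial and 196 UMIs in 38 of 162 Cap-Arterial cells. On both arterial clusters together it had 429 UMIs, against 4 on both venous ones. The other 7 markers had at most 10 UMIs each on the arterial and 18 on the venous side, with *Tubb3* at 0 on the arterial side and *Neurod1*, by which cells were excluded, at 0 on both. At P15 the list summed to 139 CPM on the arterial and 57.1 on the venous side, with *Crx*, *Neurod1* and *Tubb3* at 0. By cluster the list was at 447 CPM in 2 Venous, 395 in 36 Primitive, 326 in 11 Arterial and 109 in 68 Cap-Arterial cells. The other named P15 clusters were at 45.7 to 63.25.

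Within the family, the 8 members held nearly all of the signal. The 22 genes together gave 4316 UMIs in kept P6 cells and 3087 in kept P15 cells, of which members made up 94.2% and 95.4%. Each class was carried by few genes. *Efna1* gave 96.0% of ephrin-A UMIs at P6 and 96.5% at P15, and *Ephb4* gave 93.6% and 99.1% of EphB UMIs. *Efnb2* gave 66.5% and 71.7% of ephrin-B UMIs. In the EphA class the leading gene differed, with *Epha2* at 44.6% of UMIs at P6 and *Epha4* at 63.0% at P15. Summed levels were 272 (262–283) and 217 (207–228) CPM for ephrin-A, 38.3 (34.5–42.4) and 53.7 (48.6–59.1) for ephrin-B, 73.7 (68.4–79.3) and 72.6 (66.7–78.9) for EphA, and 59.4 (54.7–64.5) and 56.7 (51.5–62.3) for EphB at P6 and P15. The summed intervals thus overlapped between the libraries for both receptor classes, were lower at P15 for ephrin-A and higher for ephrin-B.

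The promoters of *Efnb2* and *Ephb4*, the ligand and receptor by which arteries and veins are told apart, are shown because the study asked, in human endothelial cells, whether SMAD4 complexes bind near these genes. The study reported more SMAD4 binding near the *EFNB2* promoter and start with TGF-β1 in late G1 of the cell cycle. For *EPHB4* it reported more binding at enhancer and intron peaks, with BMP4 in early G1. The windows shown are the 250 bases before the start of each gene on its own strand, taken from RefSeq on GRCm38.p6. *Efnb2* lies on the minus strand at chr8:8617434-8661242 and the window at chr8:8661243-8661492. *Ephb4* lies on the plus strand at chr5:137350109-137378669 and the window at chr5:137349859-137350108. Capitals mark GGCGCC, letters of the GC-rich sequence bound by SMAD proteins, which reads the same on both strands.
Efnb2: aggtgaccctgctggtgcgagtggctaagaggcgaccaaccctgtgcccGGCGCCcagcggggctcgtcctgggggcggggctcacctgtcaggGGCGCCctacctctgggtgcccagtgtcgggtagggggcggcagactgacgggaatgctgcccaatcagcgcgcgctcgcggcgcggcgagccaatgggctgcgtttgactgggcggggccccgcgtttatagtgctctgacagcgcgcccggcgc
Ephb4: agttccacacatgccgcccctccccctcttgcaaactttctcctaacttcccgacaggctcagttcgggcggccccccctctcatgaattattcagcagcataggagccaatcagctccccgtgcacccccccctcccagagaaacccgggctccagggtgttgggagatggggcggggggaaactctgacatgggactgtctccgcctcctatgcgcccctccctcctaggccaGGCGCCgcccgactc
The letters GGCGCC occurred at 201 and 156 bases before the *Efnb2* start, and at 15 bases before the *Ephb4* start. They also occurred 36 bases before 1 of 2 *Efna1* starts and in no such window of the other 5 members. Of 32851 windows of this length in the table, 9.59% held them. TGGGAA, letters of an RBPJ site, occurred on either strand in windows of *Efnb1* and *Epha4* (21.6% of all windows), AGGAAG, of an ETS site, in those of *Efnb1*, *Ephb1* and *Efna1* (29.5%), and ACAATG, of a SOX site, in that of *Ephb1* (10.7%). The motifs were chosen after the levels were seen, and a match is a description of the letters, not of binding.

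*Efnb2*, the arterial ephrin, was found at 25.5 CPM (22.4–28.9, 248 UMIs) in kept P6 cells and at 38.5 (34.3–43.2, 297 UMIs) in kept P15 cells. The ratio of P15 to P6 was 1.51 (1.27–1.80). A gene was counted as called between libraries where this ratio was past 1.5 in either direction and the gene had at least 50 UMIs over both. *Efnb2* passed narrowly, and its ratio fell to 1.18 when each cell was thinned to 3000 UMIs and to 1.27 when both libraries were given the cluster make-up of P6. *Efnb1*, the X-linked B-class ephrin, was at 6.89 CPM (5.34–8.75, 67 UMIs) at P6 and 12.97 (10.6–15.8, 100 UMIs) at P15, a ratio of 1.88 (1.37–2.61).

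*Efna1*, the A-class ligand, was at 261 CPM (251–272, 2542 UMIs) at P6 and 210 (200–220, 1618 UMIs) at P15. Its ratio of 0.803 (0.754–0.855) lay below 1 under every alternative run, between 0.726 and 0.887, and was not past the fold that counts as called. *Ephb4* was at 55.6 CPM (51.0–60.5, 541 UMIs) and 56.2 (51.0–61.7, 433 UMIs), so its interval of the ratio ran from 0.888 to 1.15 around 1.01, and its direction turned with the scaling of the libraries (0.919 with median of ratios). *Epha2*, a receptor of ephrin-A1, was at 32.9 CPM (29.4–36.7, 320 UMIs) and 18.2 (15.3–21.4, 140 UMIs). This was the member called lower at P15, with a ratio of 0.552 (0.449–0.675). The ratio was 0.747, short of a call, once cells with any UMI of a marker of another cell type were left out, and the part of those cells in the result was not tested. *Epha4*, a receptor for both ephrin classes, was at 32.4 CPM (28.9–36.2, 315 UMIs) and 45.8 (41.1–50.8, 353 UMIs), a ratio of 1.41 (1.21–1.65) short of a call.

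*Ephb1* and *Ephb2*, receptors of B-class ephrins with known roles in neurons, were near the floor. *Ephb1* had 30 UMIs at P6 (3.08 CPM, 2.08–4.40) and 3 at P15 (0.389, 0.0802–1.14), a ratio of P6 to P15 of 7.92 (2.46–40.6) that rests on 3 UMIs and had too few UMIs for a call. *Ephb2* had 1 UMI in kept P6 cells and 0 at P15, where a count of 0 allows up to 0.389 CPM.

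**Figure D1:**
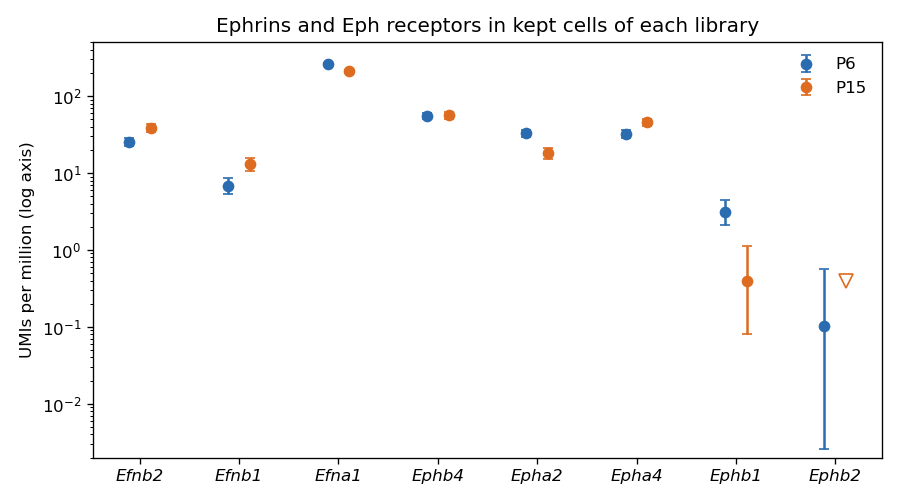
Level of the 8 members in kept cells of the P6 library (blue) and the P15 library (orange), as CPM on a log axis with exact Poisson 95% intervals; the open triangle is the upper limit that a count of 0 allows. *Efnb2* and *Efnb1* sit higher at P15, *Epha2* lower, and the points of *Ephb4* lie at 55.6 and 56.2.

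Of the 6 members with at least 50 UMIs, 2 were called higher at P15 (*Efnb2*, *Efnb1*) and 1 lower (*Epha2*). Over all 11280 genes tested, 19.7% were called higher and 12.6% lower, so these numbers are not a result about the members. The median ratio was 1.21 over the 6 members and 1.09 over all genes tested (0.13 on the log2 scale). With median of ratios scaling the median over all genes was 0.993, 14.3% of genes were called higher and 16.4% lower (46.7% of calls were higher, against 60.9% with total UMIs), and *Efnb2* was at 1.37, no longer called, while *Efnb1* was at 1.71 and *Epha2* at 0.502.

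Shares of cells with a UMI were compared at 1 depth. With each cell thinned to 3000 UMIs, which left 1406 P6 and 1192 P15 cells, *Efna1* was found in 50.8% (48.1–53.4) of P6 and 43.5% (40.6–46.3) of P15 cells. *Epha2* was found in 10.1% (8.57–11.8) and 4.53% (3.42–5.87), and *Epha4* in 8.39% (7.00–9.97) and 12.2% (10.4–14.2). *Efnb2* was found in 7.82% (6.47–9.35) and 9.06% (7.49–10.8) and *Ephb4* in 13.2% (11.4–15.04) and 14.5% (12.6–16.6), with overlapping intervals for both. *Efnb1* was found in 1.99% (1.33–2.87) and 4.45% (3.35–5.78). Without thinning the shares were higher, at 69.8% and 54.0% for *Efna1* and 13.3% and 14.2% for *Efnb2*.

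As background from cells that were not endothelial, 62 P6 barcodes led by retinal neural markers (median 4542 UMIs, none kept) and 72 P15 barcodes led by pericyte markers (median 4257 UMIs, 6 kept) were counted, by a rule set after the data were seen. *Ephb4* had a UMI in 1.61% of the neural-led barcodes, against 27.3% of kept P6 cells, and in 5.56% of the pericyte-led barcodes, against 22.2% of kept P15 cells. *Efna1* had a UMI in 11.3% and 19.4% of these barcodes, against 69.8% and 54.0%. The intervals of both genes in these barcodes lay below their shares in kept cells. *Epha4* was found in 0 of 72 pericyte-led barcodes, which allows up to 4.17%, against 17.2% of kept P15 cells, and in 8.06% (2.67–17.8) of neural-led ones, an interval that holds the 15.02% of kept P6 cells.

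*Efnb2* was found in 2.78% of the pericyte-led barcodes but in 14.5% of the neural-led ones, beside 13.3% of kept P6 cells. *Epha2* was found in 12.9% of neural-led barcodes, with an interval of 5.74–23.9 that holds the 16.8% of kept P6 cells, and in 5.56% of pericyte-led ones, beside 7.83% of kept P15 cells. *Efnb1* was found in 17.7% and 8.33% of these barcodes and in only 3.91% and 5.68% of kept cells, so no expression is read from its shares. *Efnb1* UMIs in kept cells rested on 62 P6 and 95 P15 cells.

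**Figure D2:**
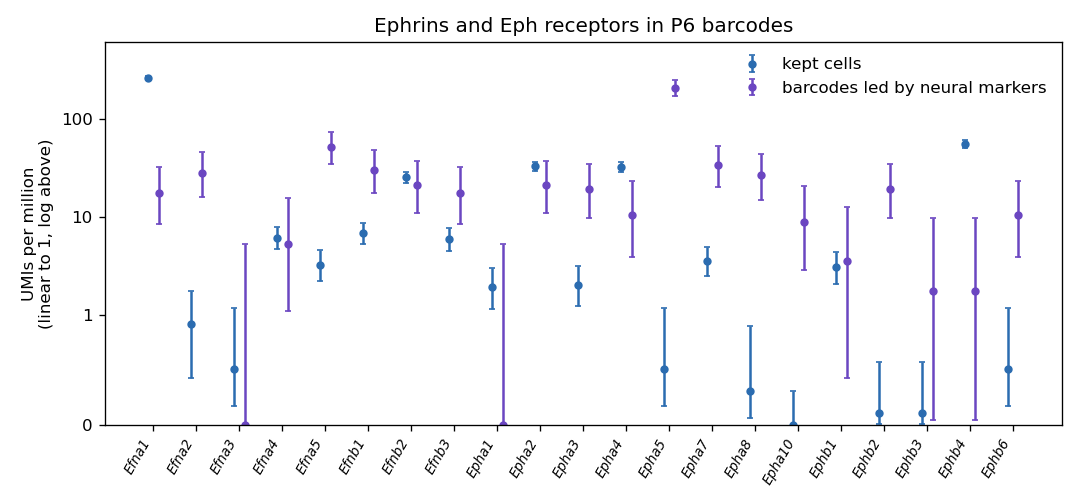
Level of family genes in kept P6 cells and in the 62 P6 barcodes led by retinal neural markers, in CPM with exact Poisson 95% intervals, on an axis that is linear up to 1 and logarithmic above. *Efna1* and *Ephb4* are far lower in the neural-led barcodes (17.7 and 1.77), where *Efnb1* (30.2) and *Ephb2* (19.5) are higher than in kept cells.

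By cluster at P6, *Efnb2* was highest in Arterial cells at 111 CPM (69.8–169, 22 UMIs in 40 cells) and Cap-Arterial cells at 83.7 (65.3–106, 70 UMIs in 162 cells), which did not differ beyond their intervals. Venous cells followed at 31.6 (14.5–60.05), Tip cells at 30.4 (21.0–42.5), Capillary cells at 23.0 (11.9–40.1), Cap-Venous cells at 18.4 (13.6–24.3), Proliferative cells at 16.7 (11.1–24.2) and Stalk cells at 12.8 (7.60–20.3). Venous cells lay below Cap-Arterial cells by their intervals, and from there each cluster overlapped with its neighbour. Primitive cells were lowest at 4.25 (1.16–10.9), from 4 UMIs in 155 cells. At 3000 UMIs per cell, 40.6% (23.7–59.4) of Arterial and 21.8% (15.1–29.8) of Cap-Arterial cells had an *Efnb2* UMI, against 6.44% (4.21–9.36) of Cap-Venous and 1.29% (0.157–4.58) of Primitive cells.

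Among the 6 P15 clusters with at least 20 named cells, *Efnb2* was again highest in Cap-Arterial cells at 115.6 CPM (80.5–161, 35 UMIs) and lowest in Cap-Venous cells at 15.7 (8.12–27.4, 12 UMIs), with Capillary, Stalk, Primitive and Tip cells between 21.1 and 56.7.

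*Efna1* was ordered alike at the top at P6. It reached 693 CPM (582–820, 137 UMIs) in Arterial and 529 (481–580, 442 UMIs) in Cap-Arterial cells, whose intervals stood apart only narrowly. It then ran from 298 (253–349) in Capillary through 281 in Venous, 258 in Tip, 240.0 in Stalk and 239 in Cap-Venous cells to 189 (169–211) in Proliferative and 145 (122–172) in Primitive cells. It was therefore present throughout the clusters, with a UMI in 50.3% of Primitive cells and in 92.5% of Arterial cells before thinning. At 3000 UMIs per cell *Efna1* was at 740 (578–933) in Arterial and 511 (444–586) in Cap-Arterial cells, with overlapping intervals. Among P15 clusters of at least 20 named cells it ran from 182 (143–229) in Stalk to 274 (217–343) in Tip cells, each overlapping with the next. The smaller clusters left out were 11 Arterial cells at 285 (14 UMIs), 2 Venous cells at 596 (4 UMIs) and 14 Proliferative cells at 110 (12 UMIs).

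*Ephb4*, a gene by which venous clusters were named, was highest in Cap-Arterial cells at P6, at 122 CPM (99.5–148, 102 UMIs). Arterial cells were at 75.9 (42.5–125), Capillary cells at 61.2 (41.9–86.4), Venous cells at 59.7 (34.8–95.7) and Cap-Venous cells at 53.4 (44.9–62.9). Only Cap-Arterial cells stood clear of Venous cells by their intervals, and Primitive cells were lowest at 30.8 (20.6–44.2). *Ephb4* was thus found in each of the 9 clusters at P6, and its share of cells at 3000 UMIs was 24.8% (17.7–33.0) in Cap-Arterial against 13.9% (10.6–17.8) in Cap-Venous cells.

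The EphA receptors had other orders. *Epha2* was highest in Capillary cells at 61.2 CPM (41.9–86.4) and Tip cells at 54.5 (41.7–70.0), and lowest in Cap-Venous cells at 23.3 (17.9–29.9), with Cap-Arterial cells beside them at 23.9 (14.6–36.9). *Epha4* was at 66.9 (46.6–93.1) in Capillary, 63.4 (47.5–82.9) in Cap-Arterial and 63.3 (37.5–99.98) in Venous cells, and lowest in Tip cells at 10.7 (5.54–18.7) and Primitive cells at 7.43 (2.99–15.3). Tip cells, which lead vessel sprouts, were therefore near the top of the order for *Epha2* and near the bottom for *Epha4*. Capillary cells had the lowest median depth of the P6 clusters, at 3204 UMIs. At 3000 UMIs per cell, *Epha4* was at 44.0 (22.7–76.8) in Capillary, 65.2 (42.6–95.5) in Cap-Arterial and 54.1 (19.8–118) in Venous cells, with overlapping intervals. *Epha2* was then at 65.9 (39.1–104) in Capillary and 57.7 (38.0–83.9) in Tip cells. *Efnb1* was highest in Cap-Arterial cells at 23.9 (14.6–36.9, 20 UMIs) and between 3.56 and 15.2 elsewhere, from 3 to 16 UMIs per cluster. *Ephb1* had between 0 and 8 UMIs in each P6 cluster.

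Each P6 cluster was also set against all other named P6 cells, as a description, over the 6 members with at least 50 UMIs there. Cap-Arterial cells had 5 members past 1.5 and none below, namely *Efnb1* at 4.48 times (2.52–7.71), *Efnb2* at 4.19 times (3.13–5.56), *Ephb4* at 2.48 times (1.98–3.08), *Efna1* at 2.23 times (2.01–2.47) and *Epha4* at 2.13 times (1.56–2.87), where 16.4% of 9839 genes were past 1.5 and 14.3% lower by as much. Without cells that held a UMI of a retinal neural marker, which left 115 Cap-Arterial cells, these 5 ratios were 4.76 (2.39–8.96), 3.76 (2.58–5.37), 2.51 (1.91–3.24), 2.34 (2.07–2.65) and 2.08 (1.42–2.97). Arterial cells had 3 members higher and 0 lower, *Efnb2* at 4.69 times (2.88–7.29), *Efna1* at 2.74 times (2.29–3.25) and *Efnb1* at 2.24 times (0.450–6.85, from 3 UMIs), where 24.4% and 24.8% of genes were. Only 6 Arterial cells were without a neural marker, and in them *Efna1* was at 3.60 times (2.25–5.47) and *Efnb2*, with 2 UMIs, at 3.70 times (0.445–13.6). *Stmn2* was found in 34 of 40 Arterial and 38 of 162 Cap-Arterial cells, so mostly cells with *Stmn2* were left out. Whether its UMIs are neural RNA was not tested. Primitive cells had 0 members higher and 4 lower, from *Efnb2* at 0.153 times (0.0413–0.396) to *Efna1* at 0.529 times (0.442–0.628), where 5.66% of genes were higher and 43.1% lower. Tip cells had *Epha2* higher, at 1.84 times (1.37–2.45), and 2 members lower, *Epha4* at 0.302 times (0.154–0.535) and *Efnb1* at 0.614 times (0.193–1.51), where 7.5% of genes were higher and 11.6% lower. Capillary cells had *Epha4* and *Epha2* higher, at 2.18 times (1.49–3.11) and 1.99 times (1.33–2.87), and 0 lower, where 23% and 12.3% of genes were. Proliferative cells had 0 higher and *Efnb2* and *Efnb1* lower, at 0.611 times (0.397–0.908) and 0.468 times (0.165–1.08), where 10.3% and 13.6% of genes were. Stalk cells also had 0 higher and the same pair lower, *Efnb2* at 0.463 times (0.270–0.749) and *Efnb1* at 0.473 times (0.148–1.16), where 3.89% and 10.5% of genes were. Venous cells had *Epha4* at 1.99 times (1.17–3.21) and *Efnb1* at 1.54 times (0.310–4.71, from 3 UMIs) higher and 0 lower, where 13.6% and 21% of genes were. Cap-Venous cells had 0 higher and *Efnb2* and *Epha2* lower, at 0.652 times (0.467–0.896) and 0.648 times (0.483–0.859), where 3.25% and 7.96% of genes were.

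**Figure D3:**
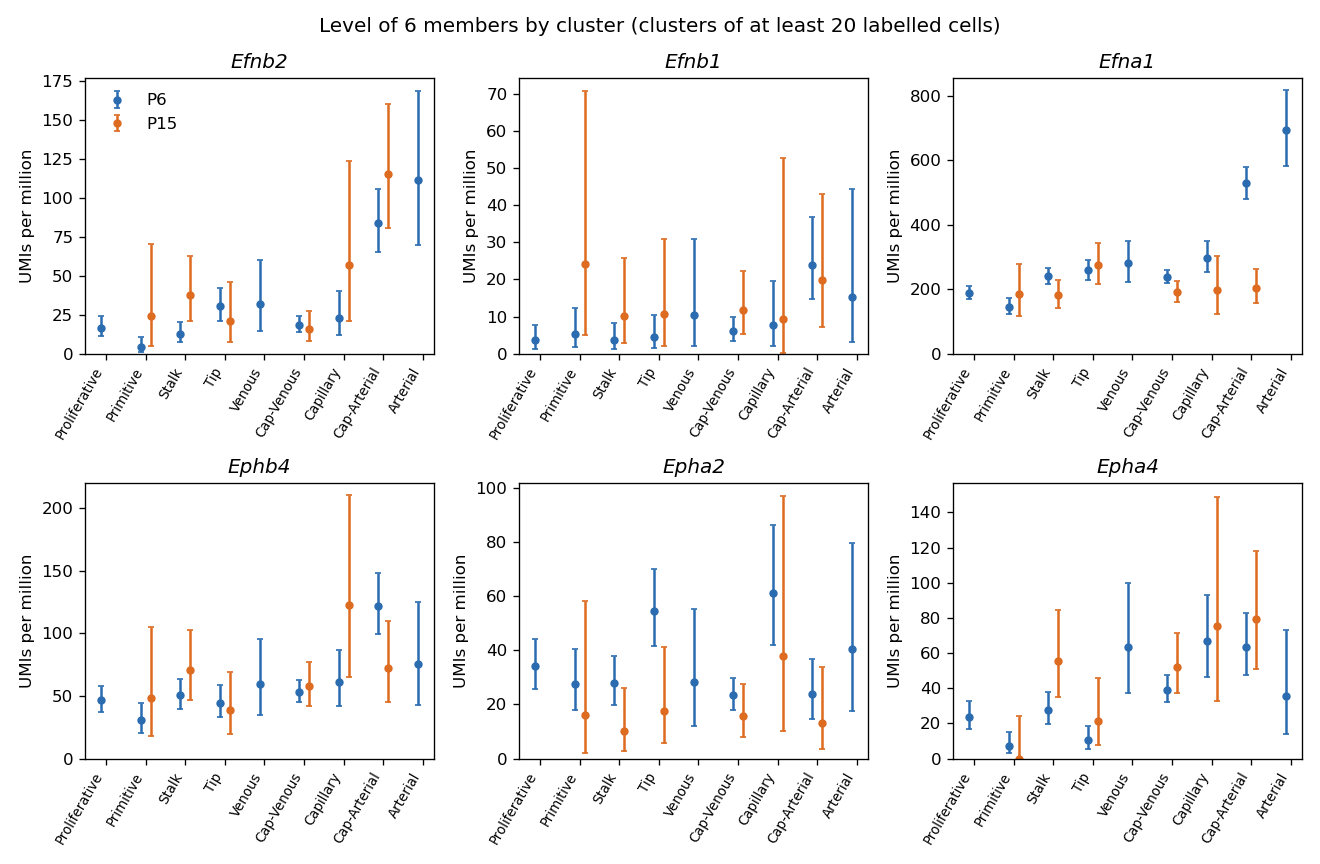
Level of 6 members in each cluster, in CPM with exact Poisson 95% intervals, for P6 (blue) and P15 (orange) cells with a cluster name; clusters under 20 cells are left out, so P15 lacks Proliferative, Venous and Arterial cells. The P6 points of *Efna1* in Cap-Arterial and Arterial cells (529 and 693) stand clear of its other points, and its P15 Cap-Arterial point lies at 205.

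Arterial and Cap-Arterial cells were then set as 1 side against Venous and Cap-Venous cells as the other, with 202 and 456 cells at P6. *Efnb2* was at 89.0 and 19.7 CPM (92 and 58 UMIs), an arterial to venous ratio of 4.52 (3.22–6.39). *Efna1* was at 560.2 and 243 (579 and 716 UMIs), a ratio of 2.30 (2.06–2.58), and *Ephb4* at 113 and 54.0 (117 and 159 UMIs), a ratio of 2.10 (1.64–2.68). For Arterial against Cap-Venous cells alone, *Ephb4* was at 1.42 and not called, while *Efnb2* was at 6.05 and *Efna1* at 2.90. With both clusters of each side, *Efnb2*, *Efna1* and *Ephb4* were the 3 of 5 members with at least 50 UMIs that were past 1.5. Over the 7543 genes tested, 12.7% were past 1.5 in this direction and 7.98% in the other, and no member was past it in the venous direction. The median ratio was 2.10 over the 5 members and 1.04 over all genes tested. *Epha4* had a ratio of 1.40 (1.01–1.92) and *Epha2* of 1.14 (0.708–1.79). *Efnb1* had 23 and 19 UMIs and a ratio of 3.45 (1.80–6.70), below the minimum of UMIs. The 8 pericyte and mural markers summed to 11.6 CPM on the arterial and 12.6 on the venous side at P6, and to 148 and 171 at P15. The retinal neural markers summed to 435 and 12.9 CPM at P6, with 415 and 1.36 from *Stmn2*. Without cells that held a UMI of one of them, which left 121 and 422 cells, the ratio was 3.47 (2.26–5.29) for *Efnb2*, 2.25 (1.97–2.58) for *Efna1*, 2.20 (1.63–2.94) for *Ephb4* and 3.67 (1.68–7.92) for *Efnb1*.

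At P15 the arterial side had 79 named cells and the venous side 136. *Efnb2* was at 108 and 15.6 CPM (38 and 12 UMIs), a ratio of 6.93 (3.55–14.6), and was the 1 of 4 members with at least 50 UMIs past 1.5. Here 10.3% of 3909 genes tested were past 1.5 in the arterial direction and 9.06% in the venous. *Efnb2* had 50 UMIs over both sides, which is the minimum itself. No member was past 1.5 with enough UMIs once cells were thinned to 3000 UMIs or cells with a marker of another cell type were left out, where the ratio of *Efnb2* was 4.25 and 6.07. *Efna1* was at 216 and 195 CPM (76 and 150 UMIs), a ratio of 1.11 (0.831–1.47), and *Ephb4* at 68.2 and 58.4 (24 and 45 UMIs), a ratio of 1.17 (0.681–1.96). *Epha4* was at 1.42 (0.834–2.39). Without cells with a retinal neural marker, which left 49 and 108 cells, *Efnb2* was at 9.40 (4.16–24.0), *Efna1* at 0.872 (0.583–1.28) and *Ephb4* at 1.49 (0.741–2.89).

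To use the other P15 cells, their cluster was predicted from the named cells by 15 nearest neighbours without any family gene, which was right for 81.3% of 438 named P15 cells left out in turn. The sides then held 328 and 634 cells. *Efnb2* was at 103 and 20.8 CPM, a ratio of 4.96 (3.70–6.71), and *Efnb1* at 26.1 and 9.02, a ratio of 2.89 (1.74–4.85). *Efna1* was at 252 and 199.99, a ratio of 1.26 (1.10–1.43), and *Ephb4* at 70.5 and 54.4, a ratio of 1.30 (1.005–1.66). The 2 members past 1.5 were *Efnb2* and *Efnb1*, where 8.48% of 8169 genes tested were past it in this direction and 7.58% in the other.

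The arterial to venous ratio of *Efna1* at P15 was 0.481 times (0.353–0.653) that at P6 over named cells and 0.546 times (0.460–0.649) with predicted names. For *Ephb4* these were 0.557 (0.306–0.995) and 0.618 (0.433–0.882). All 4 intervals lay below 1, so the ratios were smaller at P15 than at P6 beyond counting error in these libraries. Over named cells the 8 arterial markers together also had a smaller ratio, 4.04 at P15 against 7.49 at P6. The 6 venous markers went from 0.372 at P6 to 0.231 at P15. The share of all genes with such a change was not counted, so it is not read as particular to these members. For *Efnb2* the interval ran from 0.711 to 3.49 over named cells and from 0.693 to 1.74 with predicted names, and for *Epha4* from 0.540 to 1.89 and from 0.644 to 1.48, so that a change up to these sizes was not detectable at this depth.

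**Figure D4:**
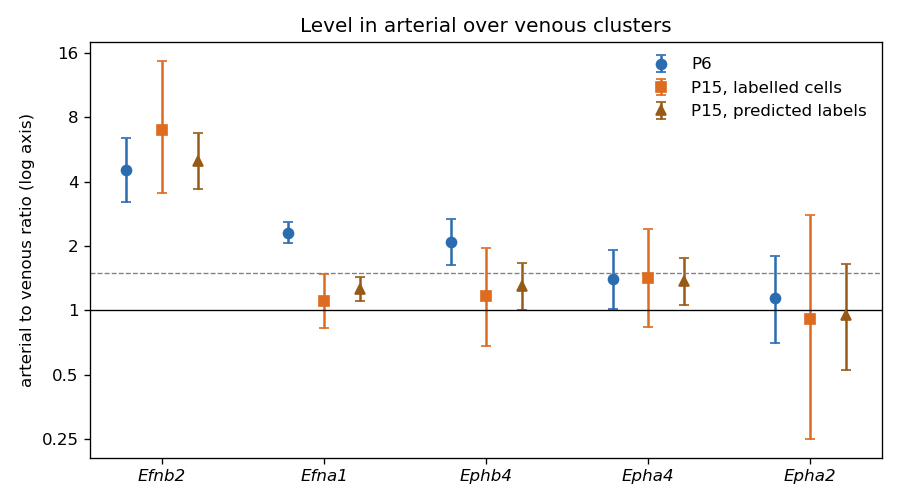
Ratio of the level in Arterial and Cap-Arterial cells to that in Venous and Cap-Venous cells for 5 members, on a log axis with exact 95% intervals, at P6 (circles), P15 cells with a name (squares) and P15 cells with predicted names (triangles); the solid line is 1 and the dashed line the fold of 1.5. *Efna1* and *Ephb4* move from 2.30 and 2.10 at P6 to 1.11 and 1.17 over named P15 cells, while *Efnb2* stays above the dashed line in each.

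Cap-Arterial cells differed between the libraries, 1 per age, for both *Efna1* and *Ephb4*. Named Cap-Arterial cells also differed in arterial markers, at 3225 CPM at P6 and 2269 at P15, and in endothelial markers, at 9802 and 14166. The share of all genes that differed within these cells was not counted. In Cap-Arterial cells *Efna1* was at 529 CPM at P6 and 205 (157–263, 62 UMIs in 68 cells) at P15, a ratio of 0.387 (0.292–0.506). With predicted names, over 287 P15 cells, it was at 230 (204–258), a ratio of 0.434 (0.373–0.505), and in 41 predicted Arterial cells it was at 413 against 693 at P6, a ratio of 0.596 (0.441–0.799). In Cap-Venous cells the ratio was 0.800 (0.664–0.959) over named cells and 0.833 (0.746–0.930) with predicted names. In Tip cells, where *Efna1* was highest among P15 clusters of at least 20 named cells at 274 (217–343), the ratio was 1.06 (0.817–1.37).

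*Ephb4* in Cap-Arterial cells was at 122 CPM at P6 and 72.7 (45.5–110.0, 22 UMIs) at P15, a ratio of 0.596 (0.358–0.951), and of 0.585 (0.436–0.786) with predicted names. In Cap-Venous cells its ratio was 1.08 (0.752–1.52) over named cells and 1.01 (0.805–1.27) with predicted names. In Capillary cells *Ephb4* was at 61.2 at P6 and 123 (65.5–210.2) at P15, from 13 UMIs in 42 cells, a ratio of 2.01 (0.968–3.93). With predicted names it was 2.09 (1.23–3.54), from 31 and 32 UMIs, so that *Ephb4* was lower at P15 in Cap-Arterial and higher in Capillary cells. *Efnb2* in Cap-Arterial cells had a ratio of 1.38 (0.893–2.10) over named and 1.19 (0.880–1.62) over predicted cells, and it was higher at P15 in Stalk cells, at 38.0 (21.2–62.6) against 12.8, a ratio of 2.96 (1.39–6.22). In Capillary cells the ratio of *Efnb2* was 2.47 (0.761–7.12) over named cells, from 6 UMIs at P15 and 12 at P6. With predicted names it was 4.31 (2.07–9.46).

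*Epha2* had a ratio below 1 in each of the 7 clusters drawn with predicted names, from 0.470 in Cap-Arterial to 0.740 in Primitive cells. The interval lay below 1 in Tip cells at 0.609 (0.386–0.946), Cap-Venous cells at 0.614 (0.411–0.912) and Cap-Arterial cells at 0.470 (0.219–0.978), from 61, 62 and 20 UMIs at P6. The lower level of *Epha2* in the P15 library was therefore not held by 1 cluster. *Epha4* was above 1 in 6 of these 7 clusters, with an interval above 1 only in Cap-Venous cells at 1.31 (1.02–1.69).

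**Figure D5:**
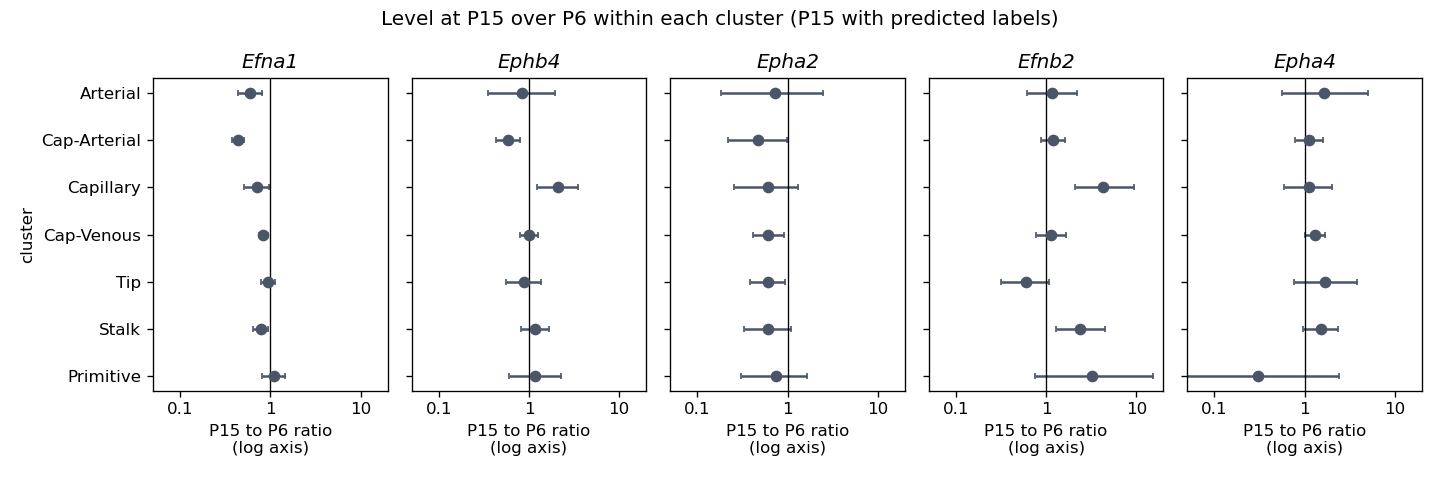
Ratio of the level at P15 to that at P6 within each of 7 clusters for 5 members, on a log axis with exact 95% intervals, with predicted names for P15 cells; the line is 1, and the interval of *Epha4* in Primitive cells runs past the axis. *Efna1* lies furthest left in Cap-Arterial cells (0.434), *Epha2* lies left of the line throughout, and *Efnb2* lies furthest right in Capillary cells (4.31).

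*Efnb2* and its receptor were also asked for in the same cell. At 3000 UMIs per cell, 15 of 1392 named P6 cells had a UMI of both *Efnb2* and *Ephb4*, 95 of *Efnb2* alone and 169 of *Ephb4* alone. The product of their shares gives 14.5 cells, so the observed number was 1.03 times (0.577–1.70) the product. At P15, 5 of 321 cells had both, 0.965 times (0.313–2.25) the product. Cells with both were 7 of 133 Cap-Arterial and 2 of 388 Cap-Venous cells at P6, where the products were 7.195 and 3.48 cells. Detection of ligand and receptor in 1 cell thus differed from the product of the shares by less than counting error at this depth. The observed number was 1.56 times the product at P6 with 2000 UMIs per cell, with 13 cells against 8.32. Without thinning it was 1.36 times, with 78 cells against 57.3, where depth differs between cells. No interval is given for these ratios, so the statement on counting error holds for 3000 UMIs per cell only.

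The likeness of profiles over the 9 P6 clusters was measured as Pearson's r of log2 (CPM + 5) against 5873 genes with at least 200 UMIs, as a description over 9 points that share 1 library and differ in depth. *Efna1* was most like *Nedd9* (r = 0.990), *Tgfb2* (0.988) and the arterial transcription factor gene *Sox17* (0.987). Among members, *Efnb2* and *Efna1* had an r of 0.964, *Efna1* and *Ephb4* 0.866 and *Efnb2* and *Ephb4* 0.857, whereas *Epha2* had an r between -0.118 and 0.138 with the other 4. The 3 most like genes of *Efnb2* were *Mansc1* (0.973), *Ankrd13a* (0.973) and *Atg101* (0.969), those of *Ephb4* were *Aqp11* (0.961), *Cyth1* (0.956) and *Armcx1* (0.950), those of *Epha2* were *Pxdn* (0.915), *Mgat5* (0.909) and *Lamc1* (0.906), and those of *Epha4* were *Maoa* (0.970), *Tnfrsf19* (0.956) and *AI467606* (0.946). With a pseudocount of 20 instead of 5, the 3 genes of *Efnb2* were *Atg101*, *Hmg20b* and *Nedd9*, *Gm20559* took the place of *AI467606* for *Epha4*, and the other members kept their 3 names. Over the 6 P15 clusters of at least 20 named cells, r for these 15 pairs ran from -0.446 to 0.931, where *Epha4* and *Tnfrsf19* kept 0.931 and *Efna1* and *Sox17* had -0.0672.

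Among the 18 genes for intracellular partners and processing, 14 had at least 50 UMIs over both libraries. *Chn2*, which encodes a GTPase-activating protein, was called higher at P15 at 19.1 against 10.7 CPM, a ratio of 1.78 (1.38–2.32). The adaptor gene *Nck2* (2.08 against 6.17, ratio 0.337, 0.181–0.592) and the exchange factor gene *Vav3* (5.19 against 8.12, ratio 0.639, 0.425–0.946) were called lower, beside 19.7% of all genes called higher and 12.6% lower. *Adam10*, a protease that can release ephrins, was at 166 CPM at P15 and 159 at P6, a ratio of 1.05 (0.971–1.13). Between arterial and venous cells at P6, of 9 such genes with 50 UMIs, the adaptor gene *Nck1* was past 1.5 at 162 against 94.4 CPM (1.71, 1.40–2.08) and *Chn2* in the venous direction at 8.71 against 14.6 (ratio 0.597, 0.256–1.24), beside 12.7% and 7.98% of all genes tested. These numbers of partner genes are near or below those shares. *Nck1* was also past it at P15, at 1.67 (1.23–2.27), but short of it at 1.38 (1.18–1.61) with predicted names.

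The other family genes were low in kept cells. *Efna4* was at 6.17 CPM at P6 and 3.11 at P15 (ratio 0.505, 0.301–0.823), *Efnb3* at 5.96 and 2.20 (0.370, 0.202–0.644) and *Epha3* at 2.06 and 4.28 (2.08, 1.16–3.83), and these were the 3 family genes beyond the members that were called. *Efna5*, with 32 UMIs at P6, had 7 of them in Arterial cells, where the retinal neural markers summed to 1210 CPM, with 1179 from *Stmn2*. Of these UMIs, 1 lay in the 6 Arterial cells without such a marker, and the part of neural RNA in this count was not tested.

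On GRCm38 the other members lie at chrX:99136130-99148991 (*Efnb1*, plus strand), chr3:89271733-89281142 (*Efna1*, minus), chr4:141301240-141329384 (*Epha2*, plus), chr1:77367185-77515088 (*Epha4*, minus), chr9:101922128-102354693 (*Ephb1*, minus) and chr4:136647539-136835988 (*Ephb2*, minus). How the genes were counted bears on *Efnb2*. In the GENCODE M21 annotation of GRCm38, 3 transcript models to be experimentally tested, *E230020D15Rik*, *Gm45074* and *Gm45073*, lie within *Efnb2* on its strand and share no exon bases with it. They had 46, 55 and 12 UMIs in kept P6 cells and 75, 86 and 23 at P15, beside 248 and 297 for *Efnb2* itself. All 3 were higher in arterial than in venous cells at P6, with ratios of 8.19 (3.54–21.2), 11.8 (5.06–31.9) and 11.4 (2.28–110.2). Over named P15 cells these were 3.50 (1.01–13.6), 1.82 (0.441–7.18) and 8.76 (0.867–431), and with predicted names 4.82 (2.68–8.99), 3.25 (1.91–5.60) and 2.11 (0.759–5.78). The P15 ratio of *Gm45074* was 0.155 times (0.0287–0.834) that at P6, and 0.275 times (0.0888–0.779) with predicted names, while the intervals of the other two held 1. Added to *Efnb2*, they gave a ratio of P15 to P6 of 1.68 and an arterial to venous ratio of 5.78 at P6 and 5.02 at P15. The exons of *Ephb4* share bases with *Zan* on the opposite strand, which had 31 and 14 UMIs. The longest exact stretch that a member shared with another family gene over coding transcripts was 45 bases (*Ephb1* and *Epha10*).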

How the data were processed

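Retinal endothelial cells were sorted and sequenced in droplets by the authors, who deposited counts of UMIs per gene and barcode, 1 table per age, not normalized. The submitters' processing notes name Seurat 3.0 and the mm10 build. The aligner is not given in the sources used here. The tables list 22734 genes at P6 and 21785 at P15, those with at least 1 UMI in that library.

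Barcodes were kept with 200 to 3500 genes, under 5% mitochondrial UMIs and a count of 0 for each gene by which the study excluded cells (*Hbb-bt*, *Cd63*, *Neurod1*), or with a cluster name from the study's source data, of which the copy held here stops partway through the P15 cells. No doublet caller was run. Counts were summed per library or cluster and divided by the total UMIs of the same cells. Levels have exact Poisson, ratios conditional exact binomial and shares Clopper-Pearson intervals at 95%, all for counting error only. No test was made, since neither age has a second library. A ratio was called past 1.5-fold with at least 50 UMIs over both sides. For equal depth, each cell was thinned to 3000 UMIs and shallower cells were left out. Other P15 cells were given a cluster by 15 nearest neighbours in 13 principal components, checked in 5 folds. The components used 3139 variable genes without family genes, the union of 2000 per library. Named genes were the 8 members, the other family genes, 18 fixed partners, and per member the 3 genes with the highest r over clusters. The members and lists were chosen with earlier results of these data known. Counts were also simulated from the Poisson model that the intervals assume, with 200 genes changed 3-fold between P15 and P6. Of the intervals for 11086 genes, 95.5% included the simulated ratio. This checks the calculation only, since spread between cells or libraries was not simulated. In such counts, 5.32% of unchanged genes were called between arterial and venous clusters at P6 and 7.77% at P15. *Epha6* had no row in either table and *Epha8* and *Epha10* none at P15, so they were not analysed there. Python 3.11.15, numpy 2.4.6, scipy 1.17.1, pandas 2.3.3, scikit-learn 1.9.0 and matplotlib 3.10.9 were used.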

Additional observations from a re-analysis of the deposited data

Results flagged for a closer look

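The 62 P6 barcodes led by retinal neural markers were used in no comparison between ages or clusters. In them 11 family genes were above their level in kept P6 cells beyond counting error. *Epha5* was at 208 CPM, against 0.514 in kept cells, *Efna5* at 51.4 against 3.29, *Epha7* at 33.7 against 3.60 and *Efnb1* at 30.2 against 6.89. *Efna2* was at 28.4 against 0.925, *Epha8* at 26.6 against 0.308, *Epha3* at 19.5 against 2.06 and *Ephb2* at 19.5 against 0.103. *Efnb3* was at 17.7 against 5.96 and *Ephb6* at 10.6 against 0.514, while *Epha10* was at 8.87 and had no UMI in kept cells. For *Ephb2*, 11 of the 12 UMIs of the whole P6 library lay in these barcodes.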

How the results depend on the processing

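The number of members called higher at P15 was 2. It was 1 with only the cells that pass the exclusion criteria, with only named cells, with median of ratios scaling, with totals without mitochondrial and ribosomal protein genes, with the same cluster weights in both libraries, and with cells thinned to 3000 UMIs, and 0 at a fold of 2. The number called lower was 1, and was 2 with every barcode, 3 with no minimum of UMIs, and 0 without cells with a marker of another cell type or at a fold of 2. Between arterial and venous cells at P6, 0 members were called lower, and 1 with no minimum of UMIs. At P15, 1 member was called higher. This was 2 with predicted names, without cells with Xist and a Y-linked gene or with no minimum of UMIs, and 0 for Arterial against Cap-Venous cells, with thinned cells or without cells with a marker of another cell type. There 0 members were called lower, and 1 with no minimum of UMIs. The cause of these moves was not tested. Of 74 alternatives of the numbers that answer a comparison, 55 stayed within their limits, and of 148 alternatives of single ratios 131 moved by less than their counting interval. For Arterial against Cap-Venous cells at P6 the ratio of *Ephb4* was 1.42, short of a call. No called ratio changed direction. The transcript models added to *Efnb2*, the ratios within clusters with predicted names, the barcodes led by markers of other cells, the ratios without cells with a retinal neural marker and the motifs were chosen after seeing the data. No paired analysis was possible because each age has 1 library. Depth limits genes such as *Ephb1* and *Ephb2*, with 30 and 1 UMIs at P6.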
